A study of Drosophila melanogaster with 3 samples.

Results

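The 10 genes described here carry the ecdysone signal in Drosophila melanogaster: the receptor genes EcR and usp, the coactivator gene tai, and the response genes Hr39, Eip75B, Eip74EF, Eip78C, br, ftz-f1 and Blimp-1. They were chosen by name, out of 13945 annotated protein-coding genes on 6 chromosome arms. The study mapped where CG15514, a protein named only by its gene number, was recovered on chromatin. Its 3 samples formed 1 group of biological replicates, all from a single transgenic line that stably expressed CG15514 with eGFP, a green fluorescent tag, at the C terminus. Whole embryos of 0 to 24 hours, male and female together, were taken, chromatin was sonicated to 200 to 800 bp, and the tagged protein was precipitated with an antibody against GFP and sequenced (ChIP-seq). There was no second condition, and peak lists hold no expression values with which the tissue could be checked, so the values below are averages over every cell type and stage of the embryo. A summit is the highest base of a peak, and its signal is the height that the authors' peak caller set against a control. The authors' thresholded list of peaks, on genome build dm6, held 8708 summits. A filter on reproducible rank made it, and not every summit in it was found in every replicate. Of the 8708 summits, 49 lay in the 10 genes or within 2 kb of them.

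Ecdysone is the steroid hormone of insect molting and metamorphosis, and in the fly embryo a pulse of it is needed for morphogenetic movements and cuticle formation. Its active form binds a heterodimer of the nuclear receptors EcR and Usp, which occupies response elements in the DNA and exchanges corepressors for coactivators such as Tai. The first genes to respond encode transcription factors that regulate later genes, and several of them, EcR included, are transcribed from widely spaced alternative promoters that give proteins or transcripts of different timing and tissue.

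CG15514-eGFP was recovered at the promoters of both receptor genes, the coactivator gene and 3 of the 7 response genes, Hr39, Eip75B and Eip78C. No summit of the thresholded list lay at an annotated promoter of Eip74EF, br, ftz-f1 or Blimp-1. A promoter summit is one within 500 bp of an annotated transcription start site (TSS) of the gene. The 6 genes made 60% of the 10 (95% Clopper-Pearson interval 26.2 to 87.8%), against 42.9% of all protein-coding genes and 51.8% of those of at least 20 kb, the size that 9 of the 10 reached. With any summit in the gene or within 2 kb counted, 9 of the 10 genes had one, Blimp-1 being the exception, against 59.1% of all protein-coding genes and 77.1% of those of at least 20 kb. The interval of the members' share holds both promoter backgrounds. With 10 genes chosen by name it is too wide to tell enrichment from its absence, so neither is read from these counts.

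Most of the 49 summits lay inside the genes and away from promoters. By position, 34 were in introns of the gene, 5 in its 5′ UTR, 4 upstream of it and 6 downstream. At an own promoter lay 12 summits, at the promoter of another gene only lay 5, and 32 were more than 500 bp from any TSS. Thus 17 of the 49 (34.7%) were at a promoter of any gene, against 63.3% of all thresholded summits and 43.4% of those in or near genes of at least 20 kb. Their density, 8.08 summits per 100 kb of the genes with their flanks, was close to the 8.02 per 100 kb over all protein-coding genes with their flanks. The median signal was 201 at the 49 summits, against 236 over the whole list, and 16 of the 49 were above that list median.

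The sequences under the summits on which the results turn are given from the Release 6 genome of RefSeq, the assembly that dm6 names, each 5′ to 3′ in the direction in which the gene is transcribed or on the strand that holds the motif. The first 3 are centred on the strongest summit of usp, tai and Eip75B, and the capital marks the summit base. They cover chrX:2042375-2042435 on the minus strand, chr2L:9166528-9166588 on the plus strand and chr3L:18019785-18019845 on the minus strand.
usp: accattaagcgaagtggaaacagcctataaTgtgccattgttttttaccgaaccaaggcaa
tai: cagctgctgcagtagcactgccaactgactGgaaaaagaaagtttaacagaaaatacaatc
Eip75B intron: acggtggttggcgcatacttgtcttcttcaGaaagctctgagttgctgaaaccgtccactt

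The next 5 hold a motif, in capitals, and were chosen because the motif lay within 100 bp of a summit of the named gene. They cover chr2L:21251963-21252023, chr3L:17616892-17616952, chr3L:17950576-17950636, chr3L:18748613-18748673 and chrX:1665029-1665057, all on the plus strand.
Hr39 intron, strongest summit: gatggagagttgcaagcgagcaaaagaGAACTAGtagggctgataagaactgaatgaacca
Eip74EF intron: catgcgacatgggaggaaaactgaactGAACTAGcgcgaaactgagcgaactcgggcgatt
Eip75B downstream: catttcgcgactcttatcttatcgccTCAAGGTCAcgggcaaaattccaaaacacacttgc
ftz-f1 downstream, at Atg3: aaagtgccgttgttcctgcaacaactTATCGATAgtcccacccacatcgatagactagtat
br downstream, at dor: ggcgactggcTATCGATActgctagtgcc

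Exact matches to 8 motifs were sought on both strands within 100 bp of each summit. Any of them was present at 12 of the 49 summits (24.5%) and at 26.0% of all 8708. The AGGTCA hexamer, the core of nuclear receptor sites, lay at 3 of the 49 summits, 2 in Eip74EF introns and 1 downstream of Eip75B, and at 3.45% of all summits. At the Eip75B summit it was part of TCAAGGTCA, the extended site that Ftz-f1 and Hr39 proteins can bind, which only 3 of all 8708 summits held. The palindromic ecdysone response element had no exact match at any of the 8708 summits. An element that differs from the palindrome at any base was not counted, so no absence of receptor elements is read from this. CCGGAAGT, an ETS type site such as the Eip74EF protein family binds, was at none of the 49 and at 0.356% of all.

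Of the other motifs, GAACCAG or GAACTAG, letters seen earlier at the strongest peaks of these same data, lay at 4 of the 49 summits, 2 in EcR and 1 each in Hr39 and Eip74EF, against 6.47% of all. TATCGATA, the DNA replication-related element of promoters, was at 3 of the 49, in EcR, at dor beside br and at Atg3 beside ftz-f1, against 7.54% of all. GGTCACAC, a core promoter motif, was at none of the 49 and at 6.28% of all. GAGAGAG, the GAGA element, was at 3 of the 49, 1 in EcR and 2 in Eip75B, against 4.57% of all. The hexamer is contained in TCAAGGTCA and the palindrome, so those counts overlap. With counts this small, no difference from the list is read.

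**Figure D1:**
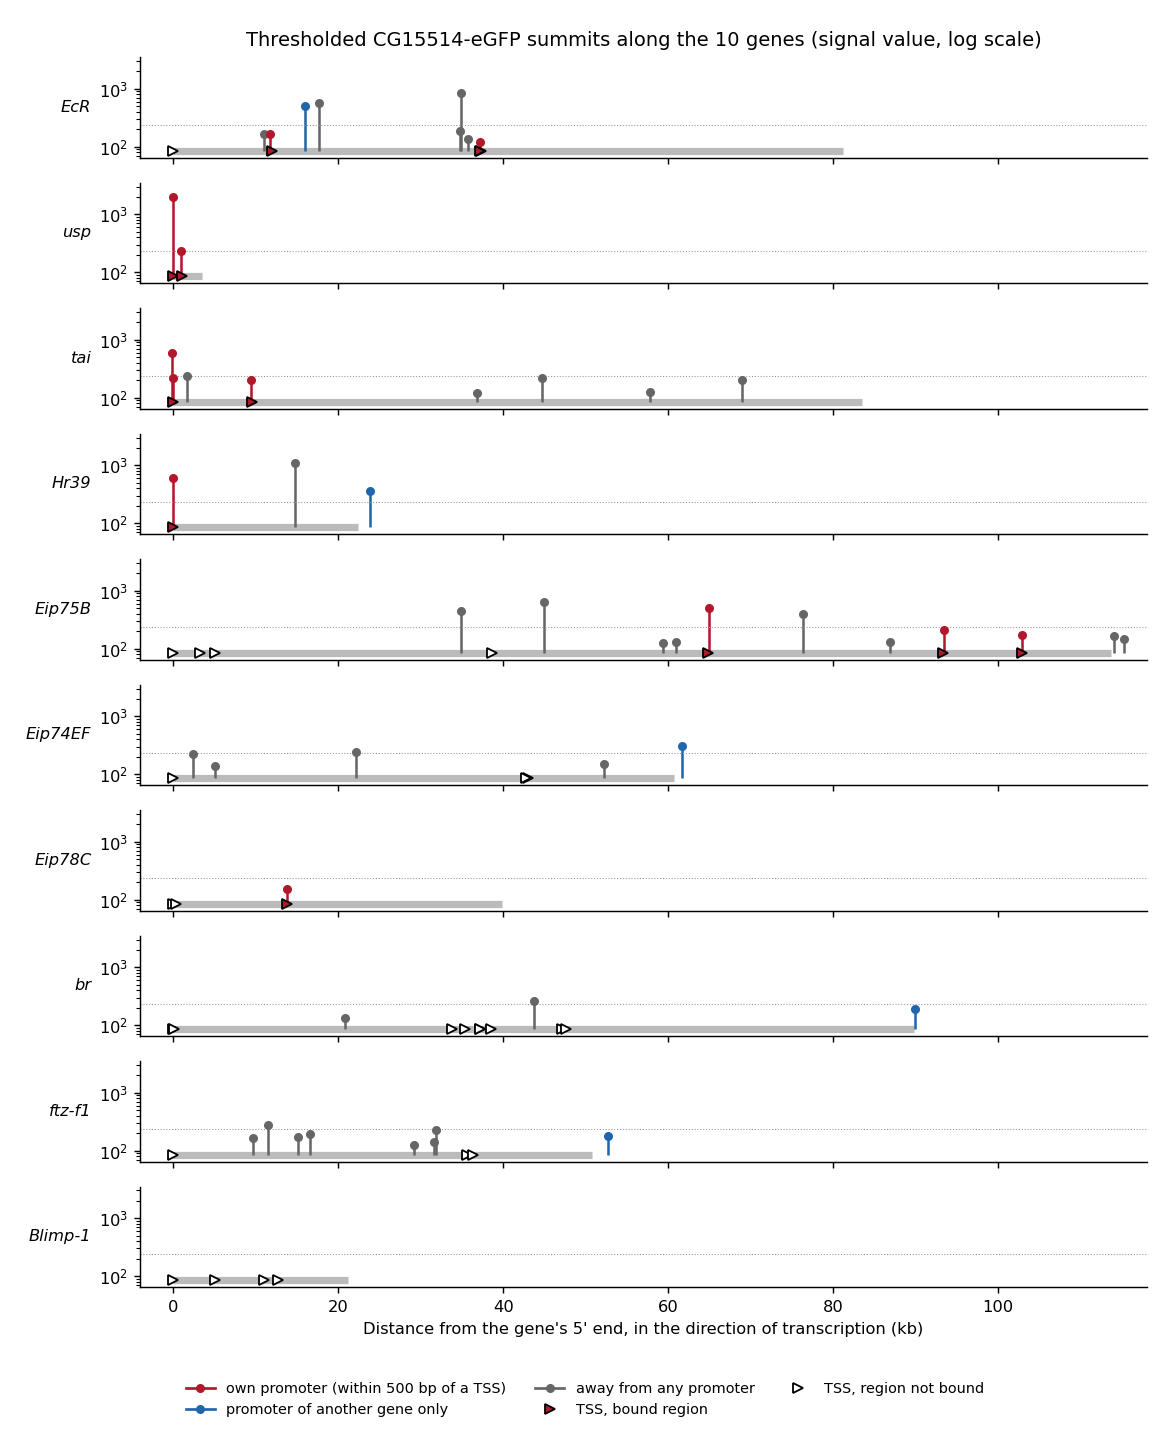
Thresholded summits along the 10 genes, with the distance from the gene's 5′ end in kb on the horizontal axis and the signal on a logarithmic vertical axis. Grey bars are the genes, filled triangles are TSSs of bound promoter regions and open triangles TSSs of regions not bound, and the dotted line is the list median of 236. Red summits are at an own promoter, blue ones at the promoter of another gene only, and grey ones away from any promoter. The tallest summits of EcR, Hr39 and Eip75B stand inside the gene, and Blimp-1 has none.

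The receptor genes differed in where the tagged protein was recovered. usp (FBgn0003964, X 2038798 to 2042311, minus strand) encodes Usp, the fly homolog of the vertebrate RXR receptors, and had the strongest promoter of the 10 genes. Its summit at X 2042405, 94 bp upstream of the usp-RB start, had a signal of 1992 and rank 311 of 8708. In the replicate lists the same summit had ranks 311, 314 and 312, with signals of 510.1, 452 and 1037. These signals were 9.17, 7.89 and 7.93 times the median of the 8708 strongest entries of each list, so the replicates placed the usp promoter at nearly the same height. Actn, which encodes alpha-actinin of muscle Z-discs and is annotated on the same strand, starts at the same base, so the summit cannot be given to usp alone.

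The other usp promoter, that of usp-RA, was bound more weakly. Its summit at X 2041414, in an intron of the usp-RB transcript and 102 bp upstream of the usp-RA start, had a signal of 233 and rank 4417. Its replicate ranks were 4450, 5593 and 4464, inside the strongest 8708 in every replicate. CG4313, which runs the other way, has a TSS 454 bp from this summit.

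EcR (FBgn0000546, 2R 6087873 to 6169087, minus strand) encodes the hormone-binding subunit of the receptor and has 3 promoter regions, where starts of 1 gene joined by steps of at most 500 bp count as 1 region. At the outermost start, of EcR-RA, no thresholded summit lay within 500 bp; the nearest was 10996 bp away. The region of EcR-RD and EcR-RE was bound at 2R 6157393, 264 bp upstream of the start, with a signal of 168 and rank 6272. The region of EcR-RB, EcR-RC and EcR-RG was bound at 2R 6131915, 7 bp inside the nearest start, with a signal of 122 and rank 8474, near the end of the list. Both of these were weak summits, and 86.2% of the 5985 genes with a promoter summit had a higher one.

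The replicates did not all hold the EcR promoter summits. The summit of EcR-RD and EcR-RE had ranks 5803 and 6376 in replicates 1 and 3. Replicate 2 had no summit within 100 bp of it, and its strongest entry in that promoter had rank 12661. The summit of EcR-RB, EcR-RC and EcR-RG had ranks 6705, 6505 and 10428. Each was therefore inside the strongest 8708 in 2 of the 3 replicates. Neither was held by both replicates 2 and 3, so EcR had no promoter summit when support in both of these was asked for. At the EcR-RA start the pooled list, which holds peaks and background, had an entry of rank 12879. The strongest replicate entries within 500 bp of that start had ranks 9167, 9285 and 14769, all outside the strongest 8708. Replicate 2 had no summit within 100 bp of the pooled entry.

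The higher EcR summits were intronic. The strongest, at 2R 6134177, lay 2255 bp upstream of the nearest start of EcR-RB, EcR-RC and EcR-RG, with a signal of 843 and rank 694. Its ranks of 599, 897 and 693 in the 3 replicates kept it among the strongest 1000 entries of each. A further summit at 2R 6151382 had a signal of 568 and replicate ranks of 1401, 1584 and 1065. The summit at 2R 6153162, with a signal of 506 and replicate ranks of 1484, 1205 and 1636, lay 24 bp upstream of tRNA:Asn-GTT-1-2, a tRNA gene inside the EcR intron. Copies tRNA:Asn-GTT-1-1 and tRNA:Asn-GTT-1-3 start 486 and 417 bp from it, and how reads matching several copies were placed is not given in the sources used here.

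Of the other 3 intronic EcR summits, the one at 2R 6134380, with a signal of 189, lay 203 bp from the strongest and 1 base past the end of its own deposited interval. It was missing from replicate 2. The remaining summits, at 2R 6158091 and 2R 6133326, had signals of 165 and 135.

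The coactivator gene tai (FBgn0041092, 2L 9166778 to 9250211, plus strand) encodes a steroid receptor coactivator of the p160 type, and both of its promoter regions were bound. At the upstream region, of tai-RD, tai-RG and tai-RH, the stronger summit, 220 bp upstream of the start at 2L 9166558, had a signal of 580.3 and rank 1156. Its ranks were 1247, 1241 and 1192 in the 3 replicates, so the replicates placed it alike. It lay nearer, 44 bp, to the start of CG9586, which is transcribed in the opposite direction. A second summit 200 bp away, 20 bp upstream of the tai start, had a signal of 216 and was among the strongest 8708 only in replicate 3.

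The inner tai region, of tai-RC, tai-RE and tai-RF, was bound 157 bp upstream of its start at 2L 9176201. The signal was 201 and the rank 5206. Its replicate ranks spread widely, at 8218, 2462 and 6343, though each was inside the strongest 8708. The other 5 tai summits were intronic, with signals from 123 to 235, and 3 of them, at 2L 9168483, 2L 9211423 and 2L 9235717, were inside the strongest 8708 of all 3 replicates.

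Hr39 (FBgn0261239, 2L 21237250 to 21259675, plus strand) encodes a nuclear receptor related to Ftz-f1 and has a single promoter, shared by its 4 annotated transcripts. That promoter was bound 84 bp upstream of the start at 2L 21237166, with a signal of 591 and rank 1132. Its ranks were 970, 1373 and 1158 in the 3 replicates, and CG31626 starts 433 bp away in the opposite direction. The highest Hr39 summit was elsewhere. At 2L 21251983, in an intron 14733 bp downstream of the start, the signal was 1104 and the rank 514, with replicate ranks of 439, 476 and 591. This is the summit whose sequence above holds GAACTAG, 10 bp from the summit base. A final summit within 2 kb of the gene's end, at 2L 21261053 with a signal of 363, lay 115 bp upstream of the start of l(2)k14505.

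Eip75B (FBgn0000568, 3L 17950953 to 18064696, minus strand) encodes a nuclear receptor that holds heme and acts early in the response. Of its 7 promoter regions, each with 1 transcript start, the 3 nearest the 3′ end of the gene were bound, and the 4 upstream, of Eip75B-RF, Eip75B-RE, Eip75B-RB and Eip75B-RG, were not. The start of Eip75B-RC had the highest promoter signal, 502 (rank 1471), at 3L 17999783 and 38 bp inside the start. Its replicate ranks were 2353, 1406 and 1294. The start of Eip75B-RA had a signal of 214 at 3L 17971236, 203 bp inside it, and replicate ranks of 5760, 4788 and 4830. The start of Eip75B-RD had a signal of 175 at 3L 17961755, 59 bp inside it. That last summit had ranks 5820 and 4706 in replicates 2 and 3 and only 20453 in replicate 1, so 2 of the 3 replicates held it.

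Among the unbound Eip75B starts, those of Eip75B-RF and Eip75B-RB had no entry in the pooled list or any replicate list within 500 bp. Those of Eip75B-RE and Eip75B-RG had pooled entries of rank 21833 and 13207, both below the authors' threshold. The strongest Eip75B summit was again intronic, at 3L 18019815, with a signal of 638, rank 1009 and replicate ranks of 1260, 924 and 1018. Others at 3L 18029798 and 3L 17988351 had signals of 442 and 399 and were held by all 3 replicates. The remaining 5 had signals from 123 to 168, and none was held by all 3. One of these, 3L 17950660 downstream of the gene, is the summit with TCAAGGTCA shown above. Replicate 1 had no summit there, and replicates 2 and 3 had ranks 6716 and 7903.

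Eip78C (FBgn0004865, 3L 21226609 to 21266503, plus strand) encodes a further nuclear receptor of the response. It had 1 summit in all, at its inner start, of Eip78C-RB. That summit, at 3L 21240411 and 64 bp inside the start, had a signal of 153 and rank 6832. Ranks of 8404, 10017 and 5808 put it inside the strongest 8708 in replicates 1 and 3 but not in replicate 2. With replicate 1 or 3 left out, the others therefore did not both hold it. The upstream region, of Eip78C-RA, Eip78C-RD and Eip78C-RE, had no entry in the pooled list, and only replicate 2 had one, of rank 25109.

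Eip74EF (FBgn0000567, 3L 17558672 to 17619325, minus strand), which encodes transcription factors with an ETS domain, had 5 summits and no bound promoter. At the start of Eip74EF-RA, Eip74EF-RC and Eip74EF-RE the pooled list had an entry 32 bp inside the start, of rank 11347, below the threshold. Replicates 2 and 3 had ranks 18507 and 9127 there and replicate 1 had no entry. The inner region, of Eip74EF-RB and Eip74EF-RD, had a pooled entry of rank 25511. The intronic summit nearest a start, 2334 bp inside it at 3L 17616991, had a signal of 225 and is the one whose sequence holds GAACTAG, 69 bp from the summit base. It had ranks 2933 and 3144 in replicates 1 and 2 and no summit in replicate 3.

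The other intronic Eip74EF summits had signals from 140.2 to 238, and none was held by all 3 replicates. The highest Eip74EF summit, at 3L 17557663 beyond the gene's end with a signal of 311, lay 125 bp inside the start of CycT, which encodes the cyclin subunit of the elongation factor P-TEFb. All 3 replicates held it, at ranks 3217, 1787 and 3683.

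br (FBgn0283451, X 1575132 to 1664869, plus strand) encodes the Broad-Complex zinc finger proteins with a BTB domain. None of its 6 promoter regions, with 9 starts for 16 transcripts, was bound. Of the 6, only that of br-RH had a pooled entry, of rank 26715, and the region used by 9 transcripts at X 1612308 to 1612341 had none in any list. The gene had 2 intronic summits. The one at X 1618894, 3414 bp upstream of the nearest start, had a signal of 262 and replicate ranks of 4702, 3754 and 3883, and the other, at X 1595913, had a signal of 130.3. The br summit at X 1665031, with a signal of 188 and replicate ranks of 5141, 8190 and 5763, lay beyond the gene's end, 21 bp upstream of dor, a gene of vacuolar protein sorting. Its sequence, shown above, holds TATCGATA.

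ftz-f1 (FBgn0001078, 3L 18750607 to 18801309, minus strand) encodes a nuclear receptor that partners the segmentation protein Ftz in the early embryo and gives later tissues competence to respond to ecdysone. It had 8 summits, none at its 3 promoter regions. The start shared by ftz-f1-RC and ftz-f1-RD came closest to the threshold, with a pooled entry of rank 9997 and signal 102, 5 bp inside it. Replicate 3 held the same entry at rank 6985, and replicates 1 and 2 had no summit within 100 bp of it. The strongest replicate 2 entry within 500 bp of the start had rank 13529, and replicate 1 had none in that span. The start of ftz-f1-RA had no entry in any list.

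At the start of ftz-f1-RB the replicates differed most. Replicate 3 had an entry 229 bp upstream of it, at 3L 18801538, with a signal of 248, rank 1709 and 1.90 times the median of its strongest 8708 entries, while replicates 1 and 2 and the pooled list had none within 500 bp. A single replicate therefore gave this gene a promoter entry of a height that the authors' list does not hold. The 7 intronic ftz-f1 summits had signals from 123 to 276, and 3 of them were held by all 3 replicates. The highest, at 3L 18789779, 11530 bp inside the ftz-f1-RB start, had replicate ranks of 5075, 3495 and 3415. The summit beyond the gene's end, at 3L 18748616 with a signal of 175, lay 71 bp upstream of Atg3, an autophagy gene, and 249 bp upstream of Nufip. It is the summit with TATCGATA shown above, and replicate 1 lacked it.

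Blimp-1 (FBgn0035625, 3L 5630983 to 5652094, plus strand) encodes a zinc finger repressor that sets the time at which ftz-f1 is expressed. It had no thresholded summit and 4 unbound promoter regions, the nearest summit being 13812 bp from the start of Blimp-1-RE. In the pooled list 2 entries fell in or near it, of rank 13336 with a signal of 75.1 and of rank 17362 with a signal of 57.7. Replicate 3 alone had a matching entry for either, at ranks 14735 and 15622, and replicate 1 had a further entry of rank 24285 at the start of Blimp-1-RE. At these ranks the lists are background by the authors' threshold, and the read depth behind them is unknown.

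Across the 10 genes, 11 of 32 promoter regions were bound (34.4%), against 38.2% of all protein-coding promoter regions. In the 9 genes with several regions, 10 of 31 were bound, against 35.3% in all such genes. Both regions of usp and of tai were bound, so 2 of the 9 members with several regions had all of them bound. Among all genes with several regions the share was 12%. That share also covers genes with more than 2 regions, while usp and tai have 2 each. EcR, Eip75B and Eip78C had some regions bound and others not, and in each of these 3 the unbound regions included the one farthest upstream. Eip74EF, br, ftz-f1 and Blimp-1 had none. Among all protein-coding genes the share with a promoter summit was 39.6% of genes with 1 region, 56.9% with 2, 69.9% with 3 and 77.5% with 4 or more. Of the 3 members with 4 or more, Eip75B was bound and br and Blimp-1 were not.

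The summits of the 11 bound regions lay 7 to 264 bp from the nearest start, 6 of them upstream of it and 5 inside the transcript. Those inside were at the 3 Eip75B regions, the Eip78C-RB start and the EcR-RB, EcR-RC and EcR-RG region. Those upstream were at both usp regions, both tai regions, the Hr39 promoter and the EcR-RD and EcR-RE region. The split was not counted over all bound promoter regions, so nothing about these genes is read from it. The signals of the 11 bound regions ran from 122 to 1992, with a median of 214. Of the 21 unbound regions, 14 had no entry of the pooled list within 500 bp and 7 had one below the threshold. Bound regions included, 18 of the 32 regions had a pooled entry, against 56.8% of all protein-coding promoter regions. Nothing particular to these genes is read from the count. The 2 unbound regions with an entry among the strongest 8708 of any replicate were both of ftz-f1, in replicate 3.

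**Figure D2:**
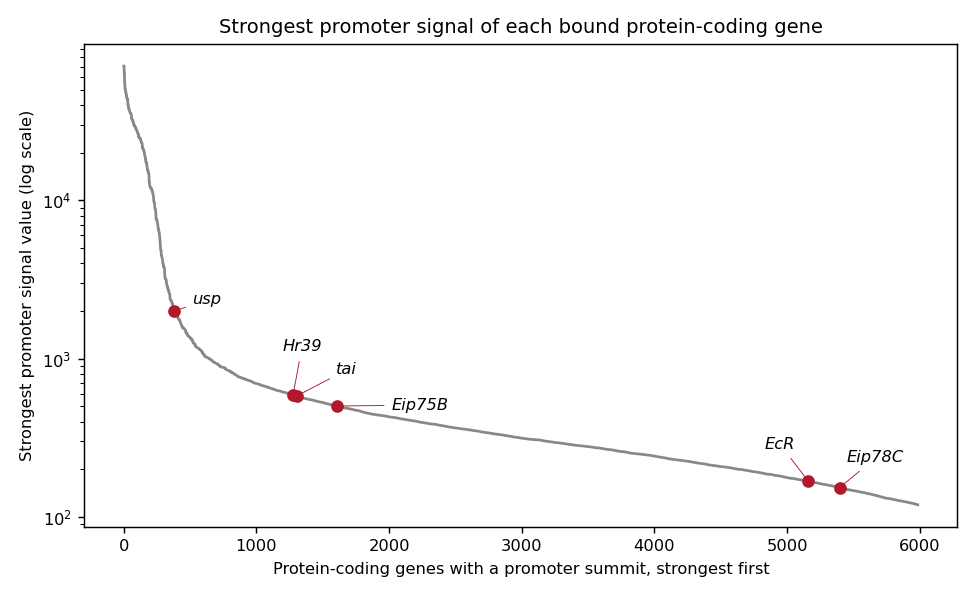
The strongest promoter signal of each of the 5985 protein-coding genes with a promoter summit, strongest first, on a logarithmic vertical axis. The 6 members are marked: usp stands at place 382, Hr39, tai and Eip75B at 1276, 1303 and 1608, and EcR and Eip78C at 5160 and 5396, near the end.

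Ordered by their strongest promoter signal, usp led the 10 genes by a wide margin. Hr39 and tai followed with 591 and 580.3 and were not separated, since tai ranked above Hr39 in replicate 2 and below it in replicates 1 and 3. Eip75B came next with 502, although in replicates 2 and 3 its signal relative to the list, 2.11 and 2.26 times the median, was within reach of Hr39 at 2.15 and 2.42. EcR with 168 and Eip78C with 153 closed the order, and in replicate 3 Eip78C ranked above EcR. The gap between usp and Hr39 was held in every replicate.

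Genes with promoter heights most like those of the leading members were sought over the 7129 protein-coding genes with a promoter entry in all 3 replicate lists. The measure was the distance between the 3 log2 signals, each over its list's median of all 30000 entries. Nearest to usp were Actn, at a distance of 0 because the summit is shared, Mapmodulin at 0.061 and CG16820 at 0.10. Nearest to Hr39 were CG31626, at 0 for the same reason, and GstO1 and foi at 0.076, whose values were identical to each other. The measure describes height alone, over 3 replicates.

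In 4 members of at least 20 kb, EcR, tai, Hr39 and Eip75B, summits lay both at own promoters and outside them. The strongest summit was outside the own promoters in EcR, Hr39 and Eip75B, which is 3 of the 4, against 54.8% of the genes of at least 20 kb with both kinds. In tai it was at the promoter shared with CG9586. The 32 summits away from any promoter had a median signal of 180.2, with a range from 123 to 1104, and the 12 at own promoters a median of 215.

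**Figure D3:**
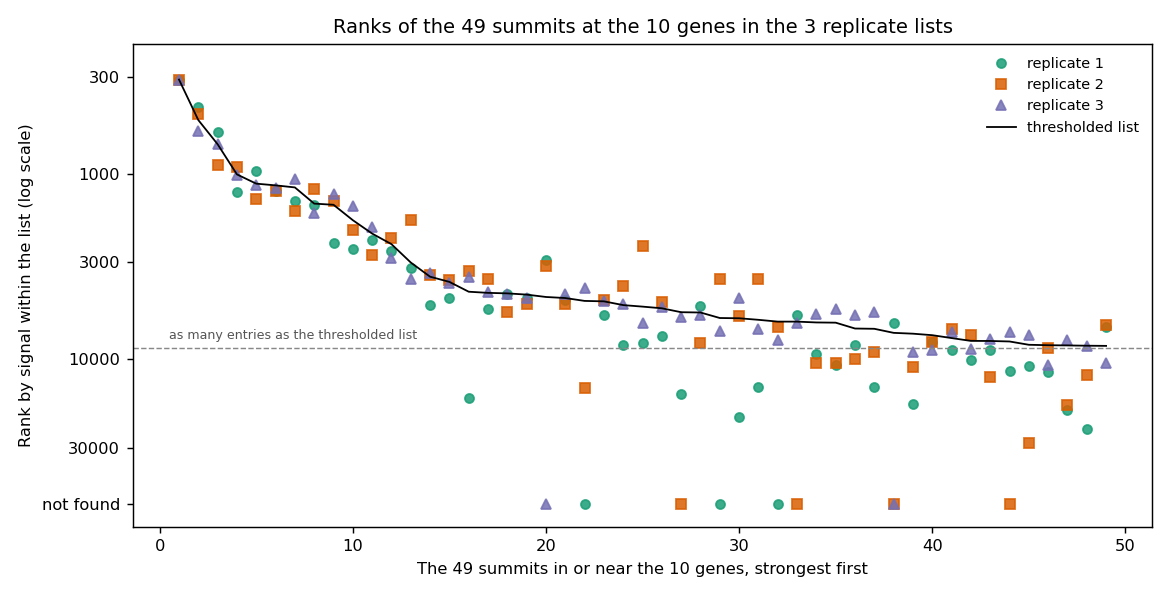
Rank by signal of each of the 49 summits in the replicate lists (points) and in the thresholded list (line), strongest summit first, on a logarithmic axis with strong ranks at the top. The dashed line marks rank 8708, and points at the bottom are summits with no entry within 100 bp in that replicate. The 13 strongest summits are held above the dashed line by all 3 replicates, and the spread widens to the right.

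A replicate was counted as holding a summit when it had a summit within 100 bp among its 8708 strongest entries. All 3 replicates held 24 of the 49 summits (49.0%), against 64.2% of all thresholded summits. Another 11 were held by 2 replicates, 12 by 1 and 2 by none, and the 2 held by none were in ftz-f1 introns. The 13 summits with a signal of 300 or more were all held by the 3 replicates, against 97.3% of such summits in the list. Of the 36 with a lower signal 11 were, against 45.3% of such summits in the list. In the whole replicate lists, background included, 41 of the 49 had an entry in each and 8 were missing from at least 1. The matching share of all thresholded summits is not given here, so nothing about these genes is read from that count.

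Taken replicate by replicate, with the 8708 strongest entries of each, 6, 5 and 7 of the 10 genes had a promoter entry (6 ± 1, SD, n = 3), against 43.6%, 42.7% and 42.5% of all protein-coding genes (43.0 ± 0.576%, SD, n = 3). Replicate 2 lacked Eip78C, and replicate 3 had ftz-f1 in addition to the other 6. The promoter regions bound numbered 10, 9 and 12 (10.3 ± 1.53, SD, n = 3). Entries in the genes or within 2 kb numbered 41, 50 and 51 (47.3 ± 5.51, SD, n = 3). The same 5 genes, EcR, usp, tai, Hr39 and Eip75B, had a promoter entry in each of the 3 replicates. For EcR no single region had one in all 3. Replicate 2 had an entry only at the region of EcR-RB, EcR-RC and EcR-RG, and replicate 3 only at that of EcR-RD and EcR-RE.

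Other genes of the ecdysone pathway, 66 in 5 lists by role, were counted in the same way. Promoter summits were found at 29 of them (43.9%), against 42.9% of all protein-coding genes. The receptor cofactors had the highest share, 10 of 12. Of these, Hsp83, the Hsp90 chaperone, had a promoter signal of 21188, brm, the ATPase of the Brahma chromatin remodeller, had 1017, and bon, a TIF1 family corepressor gene, had 490.2. nej, which encodes the CBP acetyltransferase, and Smr, a corepressor gene, had none. The summits of Hsp83, brm and bon also lay within 500 bp of the starts of CG14965, Arl1 and Pus1.

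Further response regulators had a promoter summit in 5 of 11 cases. Hr96 had 878, crol 350 and Hr78 245, while chinmo and Eip93F had none. Of the other response and target genes 7 of 21 did, led by the caspase gene Dronc with 508, the calcium-binding protein gene Eip63F-1 with 496 and the lactate dehydrogenase gene Ldh with 445. Dark, the Apaf-1 homolog, and the cuticle protein gene Edg78E had none. The summits of Hr96, Hr78 and Dronc also lay within 500 bp of starts of other genes, among them EMC6, asRNA:CR43933 and CG6685.

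Over only the genes with a promoter summit, the lists for the hormone itself had the lowest median signals. These were 173 for synthesis and 175 for uptake, export and breakdown. The medians were 345 for the cofactors, 245 for the further regulators and 301 for the other response genes. All rest on few genes, and signals in the uptake, export and breakdown list ran from 171 to 726. In ecdysone synthesis and its control 4 of 16 had a promoter summit, with ecd at 393, Start1 at 204 and the cholesterol transport gene Npc1a at 142. The Npc1a summit also lay at a start of Prosalpha6. The genes dib and nvd, which encode enzymes of the synthesis, had none. Of 6 genes of uptake, export and breakdown 3 did, the ABC transporter gene E23 at 726, the membrane receptor gene DopEcR at 175 and the ecdysone importer gene Oatp74D at 171. Atet and the ecdysone hydroxylase gene Cyp18a1 had none. The lists are small and were chosen with earlier results of these data known, so no enrichment or depletion is read from them. The interval of every list but the cofactors held the 42.9% of all genes. That of the cofactors (51.6 to 97.9%) lay above it. The lists were not matched for gene length, so the 51.8% of genes of at least 20 kb is no background for them.

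**Figure D4:**
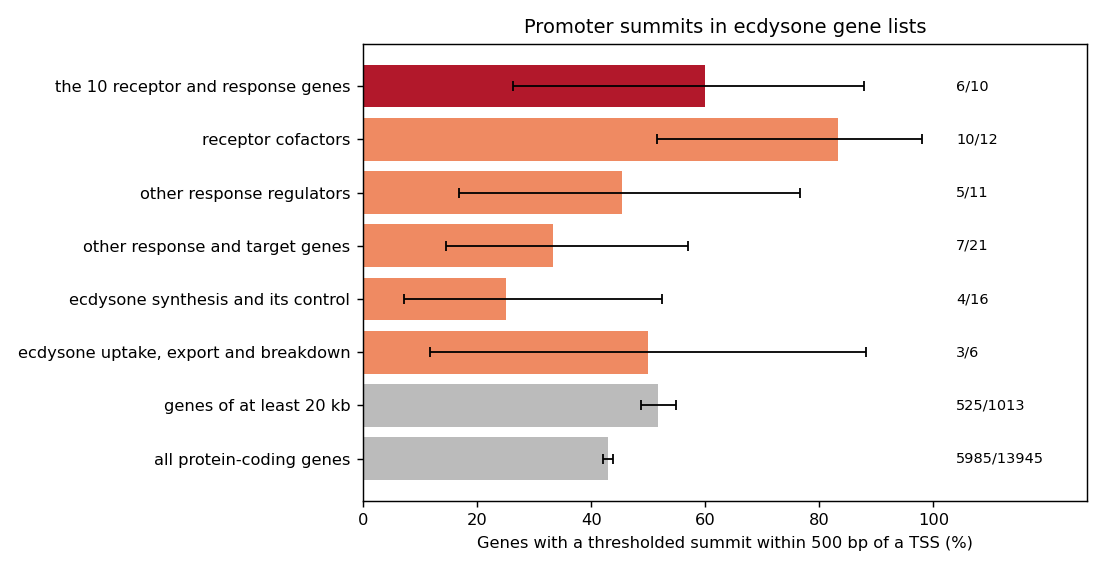
Share of genes with a promoter summit in percent, for the 10 receptor and response genes at the top, the 5 other ecdysone lists, and all protein-coding genes of at least 20 kb and of any length at the bottom. Bars are shares, lines are 95% Clopper-Pearson intervals and the counts stand at the right. The interval of the cofactors (51.6 to 97.9%) lies above the 42.9% of all genes. Those of the other lists and of the 10 genes include it. The share of genes of at least 20 kb (51.8%) is shown for the 10 genes, and the 5 other lists were not matched for length.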

How the data were processed

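The 3 replicates' peak lists on dm6, the pooled list and the authors' thresholded list were used. The dm3 lists were not used here. The heights are signal values that the authors deposited, set against a control alignment that was the same for all 3 replicates, per the deposited file descriptions. They have no scale between lists, so ranks within a list were compared. The −log10 q values the authors deposited were capped at one maximum and were not used for ranking. Each replicate and the pool of replicates has a list of 30000 entries in which background stands beside peaks; IDR, a filter on reproducible rank, made the thresholded list from them. The sources used here do not name the aligner, the peak caller or the IDR threshold. Without read counts the depth of each sample is unknown, and intervals cover counting error over genes only.

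Starts and genes came from Ensembl release 115 (annotation 6.54), on the 6 arms X, 2L, 2R, 3L, 3R and 4. Shares have 95% Clopper-Pearson intervals (SciPy 1.17.1, Python 3.11.15; figures by Matplotlib 3.10.9). Matching of summits to starts and replicates was tested on simulated data. No test between groups exists in this design, and none was made over the members.

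The genes and lists were chosen with earlier results of these data known. Named are the 10 genes, any gene with a start within 500 bp of their summits, from each list the 3 with the highest promoter signal and the first 2 by name without one, and the 3 genes nearest to usp and Hr39 in height. Genes that share a summit with a named list gene are also named in part. Of the listed names, 6 were matched through a synonym. Alternatives were other distances, flanks, list lengths and region widths, and leaving out each replicate. Sequences on 2R are not printed.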

Additional observations from a re-analysis of the deposited data

How the results depend on the processing

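The counts moved with the length of the list. With only the 4354 strongest thresholded summits, the genes held 16 summits, 4 bound regions and 3 summits with a motif, and with the whole pooled list of 30000 entries 219 summits and 18 bound regions. Support in all 3 replicates was 13 among the 4354 strongest entries of each replicate and 41 in the whole lists. The share of all protein-coding genes with a promoter summit was 38.0% at 250 bp, 46.8% at 1000 bp, 29.2% with the 4354 strongest and 59.3% with the pooled list. The share of promoter regions was 32.9%, 44.0%, 25.0% and 56.8% in the same order, 39.4% for regions by steps of 100 bp and 39.9% with each start alone. Motif windows of 50 bp, like the stronger part of the list for motifs, were chosen after seeing the data, and gave 7 summits with a motif.

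Summits held by both other replicates, leaving out each replicate in turn, gave 8 to 9 bound regions, 26 to 30 supported summits, 4 to 6 genes with a promoter summit, 35.8 to 37.4% of all genes and 31.1 to 32.5% of all regions. Without replicate 1 EcR and Eip78C had no promoter summit, leaving 4 genes, and without replicate 3 Eip78C had none, leaving 5. usp, tai, Hr39 and Eip75B kept one in every alternative run for single genes, and Blimp-1 had none in any. With the pooled list Eip74EF, br and ftz-f1 gained an entry within 500 bp of a start, which made 9 genes. The causes were not tested. No paired analysis was possible because there is 1 group. Unknown depth limits what the absence of a summit shows: it was below the authors' threshold, and a lower level is not detectable here.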

Other observations

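Some entries in or near the 10 genes were among the strongest 8708 of a replicate and had no thresholded summit within 500 bp, 9 in replicate 1, 15 in replicate 2 and 8 in replicate 3. The replicates were counted separately: Hr39 entries at 2L 21237900 in replicate 2 and 2L 21237799 in replicate 3 were both within 100 bp of the same pooled entry, of rank 9880. Most stood under the median signal of those 8708. The exceptions were the replicate 3 entry upstream of ftz-f1-RB, at 1.90 times the median, and a replicate 2 entry in the Hr39 intron at 2L 21250954, with rank 4288 and 1.01 times the median. That Hr39 entry had no summit within 100 bp in the other replicate lists or the pooled list, but a pooled summit of rank 10373 at 2L 21251079 and a replicate 1 summit of rank 6804 at 2L 21251203 lay a little farther along the intron.

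In EcR, tai and ftz-f1 a pair of thresholded summits stood 203, 200 and 202 bp apart. In each pair the signals were unequal, 843 and 189 in EcR, 580.3 and 216 in tai, and 230.4 and 143 in ftz-f1.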
